A study of Mus musculus with 8 samples.

Results

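The mouse mitochondrial chromosome carries 37 annotated genes, of which 13 encode proteins, 2 encode ribosomal RNAs (rRNA) and 22 encode transfer RNAs (tRNA). All 37 were chosen by their chromosome alone, in the GENCODE M21 annotation of GRCm38, from the 46078 gene identifiers in the deposited counts. The counts come from RNA-seq of poly(A)-enriched RNA from fasted livers of mice on a control diet (CD, labelled chow diet), with 1 library per liver and 4 livers per genotype. LΔRbfox2 mice (labelled Rbfox2 knockout) carry Rbfox2 alleles flanked by loxP sites and a Cre recombinase driven by the Albumin promoter, which limits the deletion to hepatocytes. LWT mice (labelled wild-type) are the controls, and the study describes them as carrying the same loxP alleles without Cre. The labels give 12 weeks on the diet for every liver and no age, whereas the methods of the study describe a longer feeding period that began in young adult mice. RBFOX2 is a splicing factor of the nucleus, and the comparison asks how the RNAs of the mitochondrial genome stood in livers that lack it in hepatocytes.

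Mitochondrial DNA is a small circle, and both of its strands are transcribed into long precursor RNAs in which tRNAs punctuate most of the rRNAs and mRNAs. Excision of the tRNAs frees the rRNAs and mRNAs, and most of these then receive short poly(A) tails, which in several mRNAs complete the stop codon. The encoded proteins are core subunits of respiratory complexes I, III and IV and of ATP synthase (complex V), whose other subunits come from nuclear genes, and hepatocytes are rich in mitochondria.

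The genes lie so close together that 9 pairs of neighbours share bases, and a few sequences show what this means for reads of 100 bases. The 2 longest overlaps on one strand join protein-coding genes: *mt-Atp8* shares its last 43 bases with *mt-Atp6*, and *mt-Nd4l* shares its last 7 bases with *mt-Nd4*. The ends of both genes are shown from 5′ to 3′ with the shared bases in capitals, *mt-Atp8* at chrM:7910-7969 and *mt-Nd4l* at chrM:10144-10173, both on the plus strand of GRCm38.
mt-Atp8 3′ end: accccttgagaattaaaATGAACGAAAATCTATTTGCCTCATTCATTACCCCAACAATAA
mt-Nd4l 3′ end: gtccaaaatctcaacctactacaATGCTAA

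The tRNA genes are between 59 and 75 bases long, shorter than 1 read. *mt-Ti*, the isoleucine tRNA with the highest count, is shown with *mt-Ts1*, a serine tRNA whose count differed most between livers among the tested tRNAs, *mt-Tl1*, a leucine tRNA that follows *mt-Rnr2* directly, and *mt-Tk*, the lysine tRNA, on which no read was counted. Capitals mark bases shared with a neighbouring gene on either strand. *mt-Ti* lies at chrM:3706-3774 (plus strand), *mt-Ts1* at chrM:6870-6938 (minus strand), *mt-Tl1* at chrM:2676-2750 (plus strand) and *mt-Tk* at chrM:7700-7764 (plus strand).
mt-Ti: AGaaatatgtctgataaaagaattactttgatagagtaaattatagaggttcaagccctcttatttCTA
mt-Ts1: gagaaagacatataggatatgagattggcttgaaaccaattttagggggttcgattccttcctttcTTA
mt-Tl1: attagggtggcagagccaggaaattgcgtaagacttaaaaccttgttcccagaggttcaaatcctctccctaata
mt-Tk: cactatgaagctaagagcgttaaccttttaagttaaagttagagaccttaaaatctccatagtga

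A stretch of mitochondrial sequence also sits in the nuclear genome, and *mt-Nd3*, a small complex I subunit, shows how close the copy is. The gene is 348 bases long and differs from *Gm28438*, its copy on chromosome 1, at 1 of the 345 bases that the copy covers. The difference is T3C, counted from 1 at the 5′ end of *mt-Nd3*, and the capital marks it in the first 120 bases of the gene (chrM:9459-9578, plus strand of GRCm38).
mt-Nd3: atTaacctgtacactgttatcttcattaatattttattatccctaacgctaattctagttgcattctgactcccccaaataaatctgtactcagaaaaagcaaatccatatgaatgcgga

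Total counts per liver ranged from 37482458 to 56177588, and 13856 genes had enough counts to be tested, among them 23 of the 37 mitochondrial genes: all 13 protein-coding genes, both rRNA genes and 8 of the 22 tRNA genes. Levels are given as CPM, counts relative to library size after TMM normalization, a scaling that evens out differences in library composition. *Rbfox2* was between 10.4 and 18.3 CPM in the LWT livers and between 2.24 and 6.09 CPM in the LΔRbfox2 livers, without overlap. With edgeR's quasi-likelihood test, 0 of the 13856 genes passed an adjusted P of 0.05 and 1356 (9.79%) had an unadjusted P under 0.05, a number that ran from 404 (without LΔRbfox2 replicate 4) to 3475 (without LΔRbfox2 replicate 2) with 1 liver left out, while DESeq2 gave 10 genes past the adjusted threshold. A share of the library that differed between livers came from the Mup genes, which encode the major urinary proteins secreted by the liver and took between 21.4% and 43.6% of all counts. The TMM factors ranged from 1.02 to 1.13 in the LWT livers. They were 1.11, 1.14, 0.724 and 0.776 in LΔRbfox2 replicates 1 to 4, so replicates 3 and 4 of this genotype stood apart.

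On chromosome 1, 7 annotated pseudogenes between 24611535 and 24616197 (minus strand, GRCm38) copy *mt-Co1*, *mt-Co2*, *mt-Atp6*, *mt-Co3*, *mt-Nd3*, *mt-Nd4l* and *mt-Nd4* over at least 99% identical bases. Their counts followed those of the mitochondrial genes in every liver. *Gm28438* had between 0.986 and 0.989 of the count of *mt-Nd3*, *Gm10222* between 0.988 and 0.993 of that of *mt-Nd4l*, and *Gm28661* between 0.988 and 0.9995 of that of *mt-Co2*. *Gm28437* held between 1 and 1.01 times the count of *mt-Co3*, and *Gm10925* between 1.06 and 1.07 times that of *mt-Atp6*. The shorter copies held less: *Gm28439*, which covers 876 of the 1378 bases of *mt-Nd4*, had between 0.544 and 0.569 of its count, and *Gm29216*, which covers 483 of the 1545 bases of *mt-Co1*, between 0.284 and 0.314.

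The 7 copies together took between 2.05% and 2.78% of all counts. Their rows are therefore not a second measurement, and for these 7 genes the share of reads that belongs to the mitochondrial and to the nuclear sequence cannot be told apart from the counts. Copies that differ more held far fewer counts. *Gm13341* on chromosome 2, 95.9% identical to *mt-Co2*, held between 0.0231 and 0.0288 of its count, and *Gm13340*, 97.6% identical to *mt-Co1*, between 0.00646 and 0.00814. *Gm11408*, 93.6% identical to the whole of *mt-Nd6*, had 0 counts in every liver. No annotated copy of 100 bases or more was found for *mt-Nd1* or *mt-Rnr1*.

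**Figure D1:**
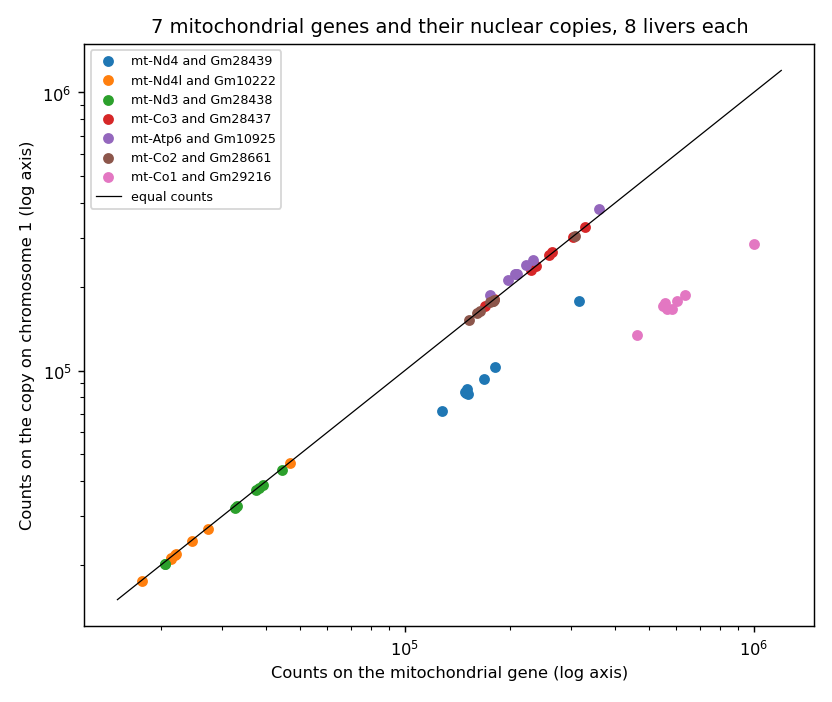
Counts on 7 mitochondrial genes (horizontal axis, log scale) against counts on their copies on chromosome 1 (vertical axis, log scale), with 1 point per liver and the line of equal counts. The points of 4 pairs lie on or next to the line and those of *mt-Atp6* slightly above it, while *Gm28439* and *Gm29216*, which copy part of *mt-Nd4* and *mt-Co1*, run below it at 0.544 to 0.569 and 0.284 to 0.314 of the mitochondrial count.

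Per kilobase of gene, the levels of the protein-coding genes spanned a wide range, and 12 of the 13 lie on one strand. In LWT livers *mt-Co1*, the catalytic subunit of cytochrome c oxidase (complex IV), was highest at 7979 ± 292 CPM per kilobase (SD, n = 4). It was followed by *mt-Atp6*, the proton channel subunit of ATP synthase, at 6672 ± 379, by *mt-Co3* at 5790 ± 384 and by *mt-Co2* at 5603 ± 319, the latter 2 being the other mitochondrial subunits of complex IV and not separated beyond their spread. *mt-Cytb*, the only complex III subunit of this genome, stood at 3932 ± 523, near *mt-Nd2* at 3616 ± 144 and *mt-Atp8* at 3462 ± 396.

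The complex I subunits other than *mt-Nd2* came next. *mt-Nd1* was at 3063 ± 152 CPM per kilobase and *mt-Nd4* at 2651 ± 315, with *mt-Nd4l* at 1796 ± 201 and *mt-Nd3* at 1687 ± 289, which overlapped each other. *mt-Nd5* was at 1342 ± 230. *mt-Nd6*, the only protein-coding gene on the minus strand and one whose RNA is known in human cells for lacking a stable poly(A) tail, was lowest at 112 ± 20.5. The rRNAs, which in a total RNA library exceed the mRNAs, were at 1623 ± 217 for *mt-Rnr2* (16S) and 1215 ± 157 for *mt-Rnr1* (12S) after poly(A) enrichment.

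The order in LΔRbfox2 livers began differently, with *mt-Co1* at 10337 ± 1655 CPM per kilobase, *mt-Co3* at 8941 ± 2372 and *mt-Atp6* at 8514 ± 865 (SD, n = 4). *mt-Co3* and *mt-Atp6* thus changed places, but within each other's spread. *mt-Nd6* was again the lowest mRNA, at 125 ± 20.6.

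**Figure D2:**
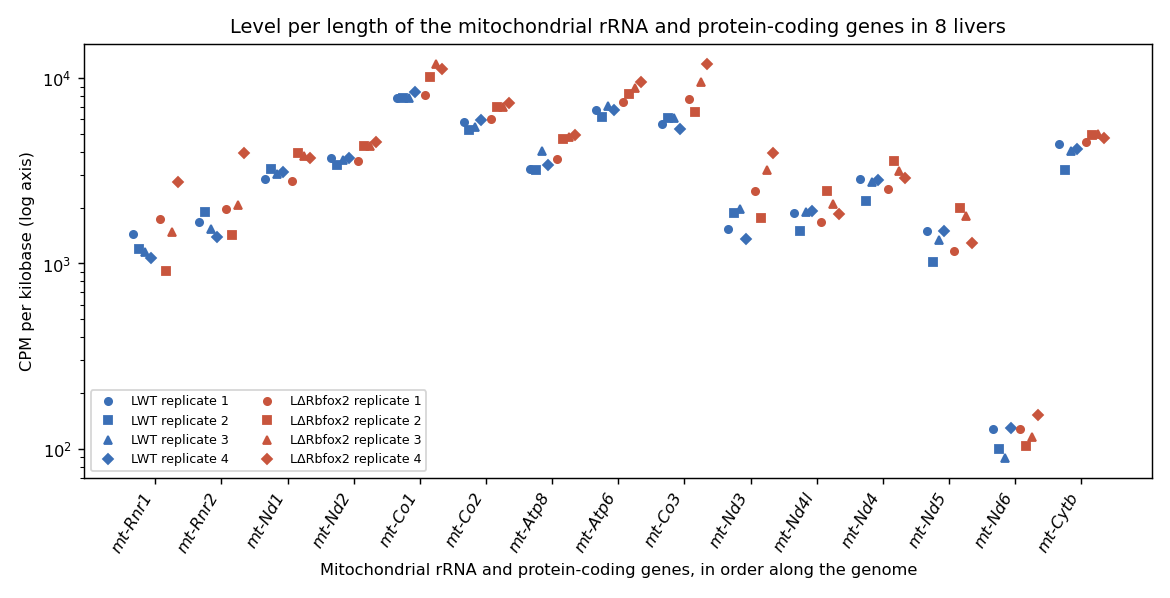
Level of the 2 rRNA and 13 protein-coding genes in CPM per kilobase (vertical axis, log scale) in order along the genome, with 1 point per liver, LWT in blue and LΔRbfox2 in red. *mt-Nd6* sits near 112 in LWT livers, far under *mt-Co1* at 7979, and LΔRbfox2 replicate 4 is the highest liver for both rRNAs, *mt-Co3* and *mt-Nd3*.

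As a class, the 13 protein-coding genes took 4.62%, 4.61%, 4.98% and 5.15% of all counts in LWT replicates 1 to 4, and 5.21%, 6.38%, 4.41% and 4.73% in LΔRbfox2 replicates 1 to 4. The genotypes overlapped on this measure, at 4.84 ± 0.268% and 5.19 ± 0.864% (SD, n = 4), and the lowest and highest livers were both LΔRbfox2. Without LΔRbfox2 replicate 2 the difference of 0.348 percentage points became -0.0515, and with the Mup genes left out of the total it was 0.824, with the genotypes still overlapping.

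On the TMM scale the same sum separated the genotypes. It was 45211, 41636, 45057 and 45747 CPM in LWT replicates 1 to 4 and 47049, 55999, 60979 and 61022 CPM in LΔRbfox2 replicates 1 to 4, a ratio of means of 1.27. Every LΔRbfox2 liver was above every LWT liver, with replicates 3 and 4 highest. These were the livers with the low TMM factors and the highest Mup shares of their genotype (43.57% and 37.45%). LWT replicate 1 had a Mup share near that of LΔRbfox2 replicate 4, at 37.14%, but a TMM factor of 1.022 and a sum of 45211 CPM. What links these measures was not tested. In a bulk liver, fewer cells of a type and less RNA per cell cannot be told apart.

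The 2 rRNAs took 0.405 ± 0.0409% of all counts in LWT and 0.478 ± 0.163% in LΔRbfox2 livers. In LΔRbfox2 replicates 1 to 4 the share was 0.529%, 0.356%, 0.339% and 0.686%, so this genotype held both the lowest and the highest liver. The 22 tRNAs together took between 0.00189% and 0.00526%.

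Gene by gene, all 23 tested mitochondrial genes had a log2 fold change above 0 (LΔRbfox2 over LWT) with TMM, where 48.4% of all genes tested did, and 0 of the 23 passed an adjusted P of 0.05 with edgeR or with DESeq2. Of the 13 protein-coding genes, 3 had an unadjusted P under 0.05, all higher, beside 7.95% of all genes tested that were higher at that level: *mt-Nd3*, *mt-Co3* and *mt-Atp8*. This count was 0 without LΔRbfox2 replicate 4 (with 404 of all genes) and 5 without LΔRbfox2 replicate 1 (with 1027). With total counts it was 0 (with 596 of all genes). The median log2 fold change was 0.285 over the 13 protein-coding genes, 0.52 over the 2 rRNAs and 0.47 over the 8 tested tRNAs, beside -0.015 over all genes tested. The tRNA median was 0.24 without LΔRbfox2 replicate 1, 0.26 without LΔRbfox2 replicate 4 and 0.24 with limma-voom. For *mt-Co2*, *mt-Atp6*, *mt-Co3* and *mt-Cytb* every LΔRbfox2 liver lay above every LWT liver in CPM, beside 1.05% of all genes. For 0 members did every LΔRbfox2 liver lie below, beside 1.23% of all genes. As a percentage of total counts, only *mt-Co3* of the 13 protein-coding genes kept its groups apart. The share of all genes that did so on this scale was not counted, so no conclusion is drawn from it.

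These signs depend on how libraries are scaled to each other. With total counts and no TMM factor, the median of all genes moved from -0.015 to -0.23 and that of the 13 protein-coding genes to 0.06, that of the rRNAs was 0.232 and that of the tested tRNAs 0.224, and *mt-Nd1*, *mt-Nd2*, *mt-Nd4*, *mt-Nd4l* and *mt-Nd6* were on the other side of 0. With each library corrected for gene length, 3 of the 13 protein-coding genes were above 0 and their median was -0.12, and 0 were above 0 with GC content and length corrected together, at a median of -0.38. Without LΔRbfox2 replicates 3 and 4 (TMM), all 13 protein-coding genes were above 0 at a median of 0.20, edgeR gave 0 of them and 171 of all genes an unadjusted P under 0.05, against 1356 of all genes with every liver, and the median of the 2 rRNAs was 0.07.

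**Figure D3:**
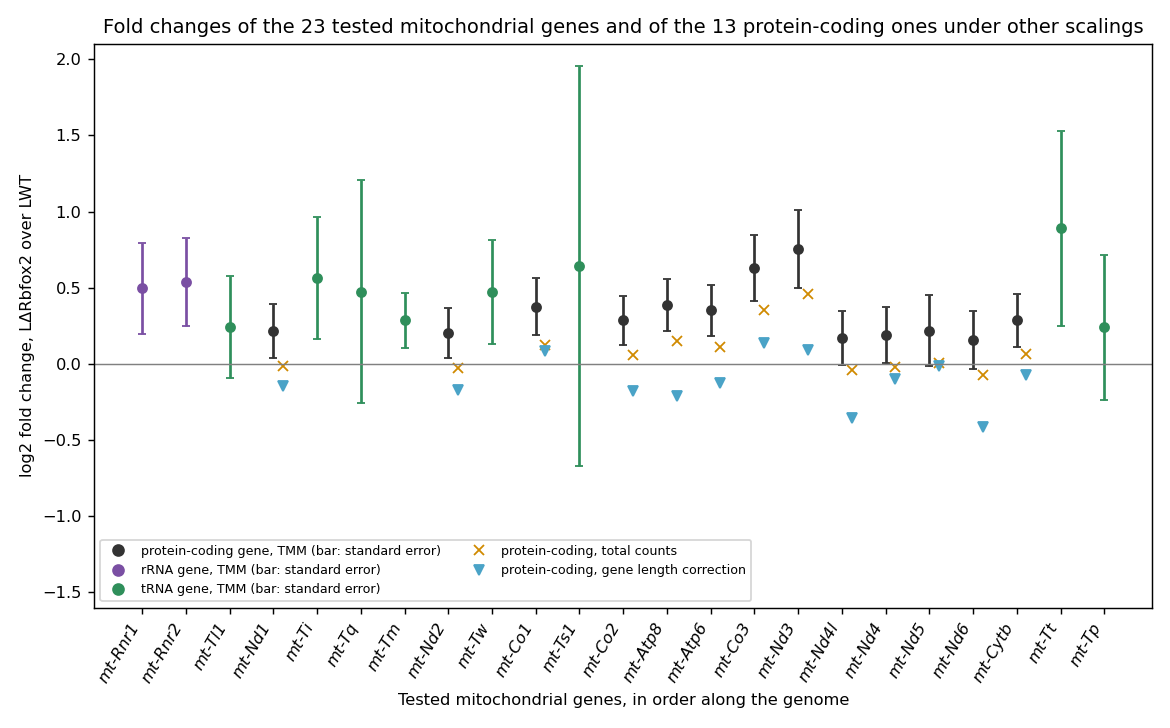
Log2 fold change (LΔRbfox2 over LWT) of the 23 tested mitochondrial genes in order along the genome, with standard errors from limma-voom as bars, and of the 13 protein-coding genes with total counts (crosses) and with a gene length correction (triangles). All 23 circles lie above 0, while 8 crosses and 3 triangles do.

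Complex IV takes electrons from cytochrome c to oxygen, and its 3 mitochondrial subunits form the catalytic core. *mt-Co3* was at 4444.5, 4788, 4770.5 and 4155 CPM in LWT replicates 1 to 4 and at 6029.5, 5120.5, 7513.5 and 9374 CPM in LΔRbfox2 replicates 1 to 4. The groups did not overlap, although LΔRbfox2 replicate 2 was only just above the LWT livers and replicate 4 was far above the others. The log2 fold change was 0.63 ± 0.22 (edgeR estimate with the SE from limma-voom, as for the genes that follow), with an unadjusted P of 0.0181 and an adjusted P of 0.504 from edgeR. The 95% interval from limma-voom, around an estimate of 0.60, ran from 0.12 to 1.08. With total counts the log2 fold change of *mt-Co3* was 0.35 (unadjusted P = 0.119, edgeR), and with the length correction it was 0.135 (unadjusted P = 0.463, edgeR).

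*mt-Co1* was at 12090, 12112, 12105.5 and 13004 CPM in LWT livers and at 12563, 15614.5, 18478 and 17228 CPM in LΔRbfox2 livers. LΔRbfox2 replicate 1 was under LWT replicate 4, and the other 3 LΔRbfox2 livers were above every LWT liver. The log2 fold change was 0.37 ± 0.19 (SE), with an unadjusted P of 0.0863 from edgeR. *mt-Co2*, which holds the entry site for electrons, was at 3980, 3584, 3719 and 4047.5 CPM in LWT livers and at 4105, 4805, 4788.5 and 4990 CPM in LΔRbfox2 livers. Its groups did not overlap, by a narrow margin between LWT replicate 4 and LΔRbfox2 replicate 1, and the log2 fold change was 0.29 ± 0.16 with an unadjusted P of 0.122 from edgeR.

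ATP synthase has 2 mitochondrial subunits, whose coding sequences overlap on a shared mRNA. *mt-Atp6* was at 4571, 4210, 4839 and 4554.5 CPM in LWT livers and at 5084, 5612, 6035 and 6461 CPM in LΔRbfox2 livers. The groups did not overlap, and the log2 fold change was 0.35 ± 0.17 (SE), with an unadjusted P of 0.0706 from edgeR. *mt-Atp8*, a small membrane subunit, was at 657, 650, 824 and 693 CPM in LWT livers and at 750, 963, 984 and 1001 CPM in LΔRbfox2 livers. LWT replicate 3 was above LΔRbfox2 replicate 1, so the groups overlapped, and the log2 fold change was 0.39 ± 0.17 with an unadjusted P of 0.049 and an adjusted P of 0.504 from edgeR. With total counts the value for *mt-Atp8* was 0.149 (unadjusted P = 0.521, edgeR), and with the length correction it was -0.209 (unadjusted P = 0.513, edgeR). The count of *mt-Atp8* was between 0.144 and 0.172 of that of *mt-Atp6* in the 8 livers.

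*mt-Cytb*, the subunit of complex III that binds ubiquinol, was at 5016, 3638, 4607 and 4733 CPM in LWT livers and at 5142, 5666, 5694 and 5422 CPM in LΔRbfox2 livers. LWT replicate 2 was far under the other LWT livers, and the groups did not overlap. The log2 fold change was 0.285 ± 0.17 (SE), with an unadjusted P of 0.145 from edgeR.

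Complex I, which passes electrons from NADH to ubiquinone, takes 7 subunits from the mitochondrial genome, and their median log2 fold change was 0.20. *mt-Nd3* had the largest value of the 13 protein-coding genes. It was at 535.5, 653, 687 and 472 CPM in LWT livers and at 857, 614, 1114 and 1377 CPM in LΔRbfox2 livers. LΔRbfox2 replicate 2 was under LWT replicates 2 and 3, while the other 3 LΔRbfox2 livers were above every LWT liver. The log2 fold change was 0.75 ± 0.26 (SE), with an unadjusted P of 0.0153 and an adjusted P of 0.504 from edgeR, and the limma-voom interval ran from 0.15 to 1.29 around 0.72. With total counts the value for *mt-Nd3* was 0.46 (unadjusted P = 0.0703, edgeR), and with the length correction it was 0.09 (unadjusted P = 0.584, edgeR).

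*mt-Nd1* was at 2746, 3096, 2909 and 2972 CPM in LWT livers and at 2664, 3789, 3632 and 3552 CPM in LΔRbfox2 livers. *mt-Nd2* was at 3862.5, 3545, 3747 and 3859.5 CPM in LWT livers and at 3696, 4484, 4448 and 4670 CPM in LΔRbfox2 livers. For both of these membrane subunits, LΔRbfox2 replicates 2, 3 and 4 were above every LWT liver and replicate 1 was not. The log2 fold changes were 0.22 ± 0.18 and 0.20 ± 0.16 (SE), with unadjusted P of 0.255 and 0.257 from edgeR.

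*mt-Nd4* and *mt-Nd4l* are read from one mRNA. *mt-Nd4* was at 3944, 3011, 3780 and 3879 CPM in LWT livers and at 3468, 4915, 4321 and 3968 CPM in LΔRbfox2 livers. *mt-Nd4l* was at 557, 444, 566 and 567 CPM in LWT livers and at 499.9, 731.5, 622 and 548 CPM in LΔRbfox2 livers. In both genes LWT replicate 2 was lowest and LΔRbfox2 replicate 2 highest, and the groups overlapped. The log2 fold changes were 0.19 ± 0.19 and 0.17 ± 0.18 (SE), with unadjusted P of 0.343 and 0.368 from edgeR. Without LΔRbfox2 replicate 2 they were 0.101 and 0.0617. The count of *mt-Nd4l* was between 0.138 and 0.1497 of that of *mt-Nd4* in the 8 livers.

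*mt-Nd5*, a proton-pumping subunit with the longest coding gene, was at 2740, 1853, 2456 and 2744 CPM in LWT livers and at 2124, 3631, 3291 and 2352.5 CPM in LΔRbfox2 livers. Here too LWT replicate 2 was lowest and LΔRbfox2 replicate 2 highest, and the log2 fold change was 0.22 ± 0.23 (SE) with an unadjusted P of 0.370 from edgeR. Without LΔRbfox2 replicate 2 the value for *mt-Nd5* was 0.0809. *mt-Nd6* was at 66.8, 51.6, 46.3 and 67.1 CPM in LWT livers and at 66.2, 53.7, 60.2 and 78.8 CPM in LΔRbfox2 livers. The groups overlapped widely, with a log2 fold change of 0.16 ± 0.19 and an unadjusted P of 0.418 from edgeR. The log2 fold change was 0.0554 without LΔRbfox2 replicate 4. Since it is not given whether reads were counted by strand, reads from the opposite strand of *mt-Nd6* cannot be told apart from its own.

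The 2 rRNAs are the RNA core of the mitochondrial ribosome. *mt-Rnr1* was at 1371, 1144, 1102 and 1022 CPM in LWT livers and at 1650.5, 866, 1412 and 2612 CPM in LΔRbfox2 livers. *mt-Rnr2* was at 2650, 2998, 2434 and 2191 CPM in LWT livers and at 3129, 2259, 3275 and 6232 CPM in LΔRbfox2 livers. In both, LΔRbfox2 replicate 4 was far above all others, and LΔRbfox2 replicate 2 was the lowest liver for *mt-Rnr1* and the second lowest for *mt-Rnr2*. The log2 fold changes were 0.50 ± 0.30 and 0.54 ± 0.29 (SE), with unadjusted P of 0.130 and 0.103 from edgeR. Without LΔRbfox2 replicate 4, the median of the 2 genes went from 0.52 to 0.18. The count of *mt-Rnr2* was between 1.90 and 2.62 times that of *mt-Rnr1*.

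Some nuclear RNAs that have no poly(A) tail were also counted in these poly(A)-enriched libraries. *Rn7sk*, the small nuclear RNA that holds back transcription elongation factor P-TEFb, was at 68.3, 3.495, 1.497 and 19.9 CPM in LWT livers and at 5.99, 6.21, 5.67 and 5.51 CPM in LΔRbfox2 livers. It was highest in LWT replicates 1 and 4, and the part of tail-less RNA in the rRNA levels was not tested. Of 4 such RNAs, 3 could be tested, and 0 of these had an unadjusted P under 0.05, at a median log2 fold change of -1.275 (edgeR). This median rested on LWT replicate 1, without which it was -0.193, and it was -0.597 with limma-voom.

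The tRNAs bring amino acids to the mitochondrial ribosome, and the reads on them were few. The 22 genes held 10851 counts in the 8 livers together. The 13 tRNA genes with room for a whole read of 100 bases, in the sense that at least 100 bases around them are free of other genes on their own strand, held 9841 of these counts, and 7 of the 13 could be tested. The 9 genes with less room held 1010, of which 933 were on *mt-Tl1*. With genes on either strand considered, 3 tRNA genes had such room and held 272 of the counts, 1 of them tested, and whether reads were counted by strand is not given. Of the 14 untested tRNAs, none had more than 35 counts in any liver, and *mt-Tf*, *mt-Tk* and *mt-Ts2* had 0 in every liver, where a count of 0 allows up to 3 counts, or 0.0468 to 0.0929 CPM depending on the liver.

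**Figure D4:**
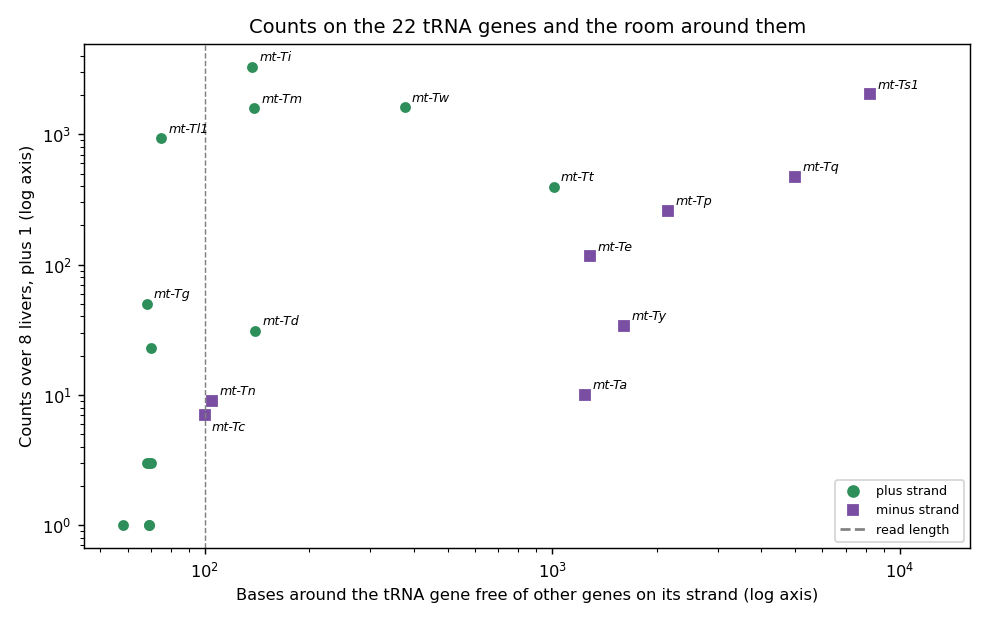
Counts over the 8 livers plus 1 (vertical axis, log scale) for each of the 22 tRNA genes against the bases around it that hold no other gene on its strand (horizontal axis, log scale), with the read length of 100 bases dashed. *mt-Ti* leads with 3291 counts, and *mt-Tl1*, with 933, is the 1 tested tRNA left of the dashed line.

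*mt-Ti* had 312, 336, 466 and 333 counts in LWT livers and 473, 320, 288 and 763 in LΔRbfox2 livers. LΔRbfox2 replicate 4 was highest, as for the rRNAs, and the others overlapped, at a log2 fold change of 0.56 ± 0.40 (SE; unadjusted P = 0.190, edgeR). Without LΔRbfox2 replicate 4 the log2 fold change of *mt-Ti* was 0.00129. *mt-Ts1* had 69, 73, 390 and 342 counts in LWT livers and 621, 10, 250 and 275 in LΔRbfox2 livers. Livers of one genotype differed more than the genotypes did, and the log2 fold change was 0.64 from edgeR and -0.28 ± 1.31 (SE) from limma-voom. With 1 liver left out, the edgeR value of *mt-Ts1* ran from 0.137 (without LΔRbfox2 replicate 1) to 1.05 (without LΔRbfox2 replicate 2).

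The methionine tRNA *mt-Tm* had 150, 165, 231 and 181 counts in LWT livers and 207, 318, 175 and 161 in LΔRbfox2 livers. The tryptophan tRNA *mt-Tw* had 123, 204, 229 and 169 counts in LWT livers and 269, 164, 187 and 262 in LΔRbfox2 livers. *mt-Tl1* had 85, 98, 168 and 102 counts in LWT livers and 150, 101, 88 and 141 in LΔRbfox2 livers. All 3 overlapped between genotypes, with log2 fold changes of 0.29 ± 0.18, 0.47 ± 0.34 and 0.24 ± 0.34 (SE) and unadjusted P of 0.143, 0.165 and 0.475 (edgeR's quasi-likelihood test). Without LΔRbfox2 replicate 4, *mt-Tw* was at 0.239 and *mt-Tl1* at 0.00666. The glutamine, threonine and proline tRNAs *mt-Tq*, *mt-Tt* and *mt-Tp* had at most 135, 97 and 54 counts in a liver, and their log2 fold changes were 0.47, 0.89 and 0.24 from edgeR. With 1 liver left out, *mt-Tt* ran from 0.539 (without LΔRbfox2 replicate 4) to 1.35 (without LWT replicate 3), and without LΔRbfox2 replicate 1 *mt-Tq* was at -0.0729 and *mt-Tp* at -0.0274. From limma-voom, which gives the standard errors, they were 0.000178 ± 0.73, 0.64 ± 0.64 and 0.18 ± 0.47 (SE), so the value of *mt-Tq* was near 0 in that fit.

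Within the mitochondrial genome, each protein-coding gene can be given as a percentage of the counts on the 13 protein-coding genes, which needs no scaling between libraries. Such shares still keep any difference between libraries that goes with gene length or GC content, and no corrected shares were made. *mt-Nd2* took 8.54%, 8.52%, 8.32% and 8.44% in LWT replicates 1 to 4 and 7.86%, 8.01%, 7.29% and 7.65% in LΔRbfox2 replicates 1 to 4. Every LΔRbfox2 liver was below every LWT liver, at means of 8.45 ± 0.101% and 7.70 ± 0.309% (SD, n = 4), and *mt-Nd2* was the only one of the 13 whose groups did not overlap on this measure. The difference lay between -0.852 and -0.614 percentage points with any 1 liver left out. The shares are parts of the same total, so a higher share of one gene lowers those of others. In CPM the log2 fold change of *mt-Nd2* was above 0, at 0.20. How often groups of other genes would separate on such a measure was not counted, so no conclusion is drawn from it.

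*mt-Co3* took 9.83%, 11.5%, 10.6% and 9.08% in LWT livers and 12.8%, 9.14%, 12.3% and 15.4% in LΔRbfox2 livers. *mt-Nd3* took 1.19%, 1.57%, 1.52% and 1.03% in LWT livers and 1.82%, 1.10%, 1.83% and 2.26% in LΔRbfox2 livers. Both shares were highest in LΔRbfox2 replicate 4 and lowest or nearly so in LWT replicate 4 and LΔRbfox2 replicate 2, which put the latter among the LWT livers. *mt-Nd5* ran the other way, at 6.06%, 4.45%, 5.45% and 5.998% in LWT livers and 4.51%, 6.48%, 5.396% and 3.85% in LΔRbfox2 livers. The ratio of *mt-Co3* to *mt-Nd5* counts was therefore 1.62, 2.58, 1.94 and 1.51 in LWT livers and 2.84, 1.41, 2.28 and 3.98 in LΔRbfox2 livers. It was lowest and highest in livers of the same genotype, LΔRbfox2 replicates 2 and 4.

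The largest share, that of *mt-Co1*, was 27.8 ± 1.16% in LWT and 28.3 ± 1.498% in LΔRbfox2 livers. *mt-Atp6* held 10.2 ± 0.348% and 10.3 ± 0.438%, *mt-Co2* 8.63 ± 0.271% and 8.33 ± 0.396%, and *mt-Cytb* 10.1 ± 0.987% and 9.82 ± 0.899% (SD, n = 4). These differences were within the spread between livers.

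**Figure D5:**
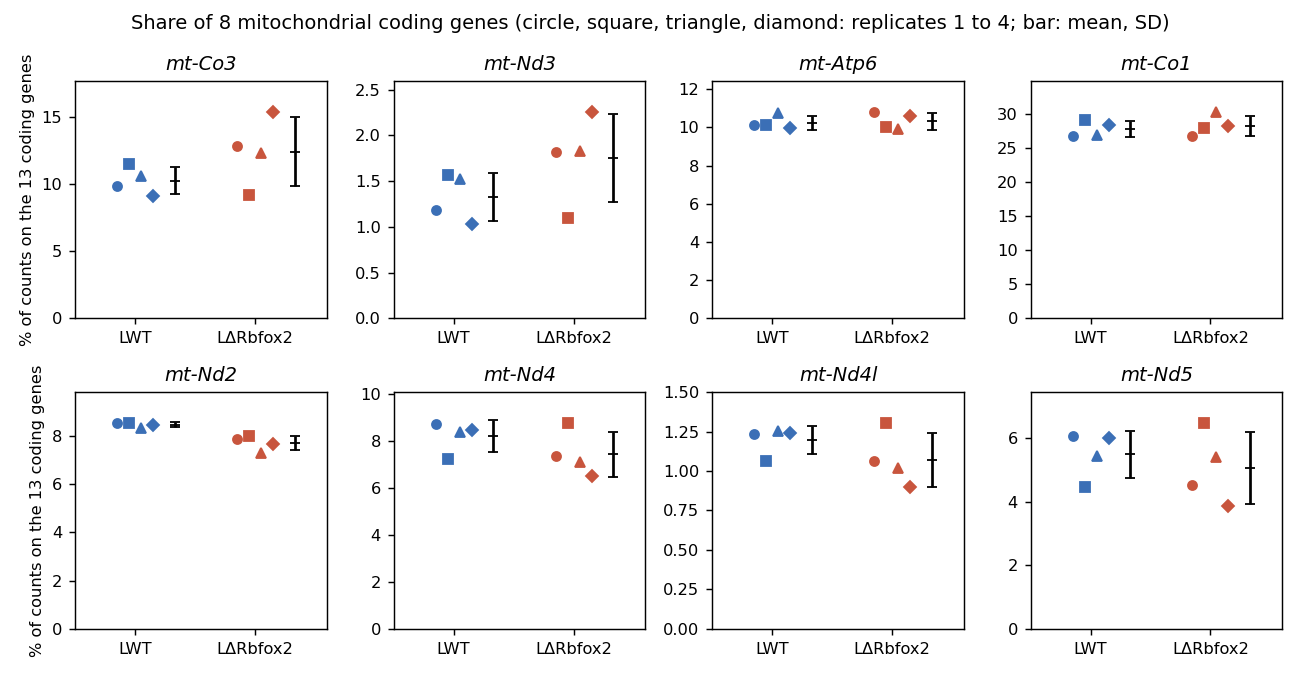
Share of 8 protein-coding genes in the counts on the 13 mitochondrial protein-coding genes (vertical axis, percent), with 1 point per liver and the mean and SD beside each genotype. The groups do not overlap for *mt-Nd2*, at 8.45% and 7.70%, and LΔRbfox2 replicates 2 and 4 lie at opposite ends for *mt-Co3* (9.14% and 15.4%) and *mt-Nd5* (6.48% and 3.85%).

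The livers also differed from each other in the same manner across many members. In CPM, LΔRbfox2 replicate 4 was the highest liver for 13 of the 23 tested genes, and no LWT liver was highest for any. LWT replicate 2 was the lowest liver for 10 of the 23. LΔRbfox2 replicate 2 was highest for *mt-Nd1*, *mt-Nd4l*, *mt-Nd4* and *mt-Nd5* and lowest for *mt-Rnr1*, *mt-Tl1*, *mt-Ti*, *mt-Tw* and *mt-Ts1*. How often each liver was highest or lowest over all genes tested was not counted, so these counts are not read as a trait of the members. LΔRbfox2 replicate 4 had a low TMM factor (0.776) and was also highest for the summed nuclear subunits of each respiratory complex.

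The nuclear genes for the same complexes give the other part of the respiratory chain. Of the 36 nuclear complex I subunits listed, all were tested, 17 were higher at an unadjusted P under 0.05 and none lower, where 7.95% of all genes tested were higher and 1.83% lower at that level, and the median log2 fold change was 0.62, beside 0.20 for the 7 mitochondrial ones. For complex III, 4 of 9 were higher at that level with a median of 0.75, beside 0.285 for *mt-Cytb*. For complex IV, 7 of 11 were higher with a median of 0.76, beside 0.37 for the 3 mitochondrial subunits. For complex V, 10 of 15 were higher with a median of 0.72, beside 0.37 for the 2 mitochondrial subunits. Complex II, which has no mitochondrial subunit, had 1 of 4 higher and a median of 0.28. With 1 liver left out, the complex II median ran from 0.114 (without LΔRbfox2 replicate 3) to 0.437 (without LWT replicate 2). None of these genes passed an adjusted P of 0.05 in the edgeR test, and none was lower at an unadjusted P under 0.05. Without LΔRbfox2 replicates 3 and 4, the medians were 0.26 for complex I, 0.25 for complex III, 0.28 for complex IV, 0.26 for complex V and -0.01 for complex II. With total counts in place of TMM they were 0.33 for complex I, 0.45 for complex III, 0.46 for complex IV, 0.42 for complex V and 0.00596 for complex II. The GC content and length corrections were not summarised for the nuclear genes. With the length correction, the median of the 13 mitochondrial protein-coding genes was -0.122, so how the nuclear and mitochondrial medians compare after it is not known.

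The nuclear gene with the smallest P in each list showed the spread. *Cox7b*, a small complex IV subunit, was at 73.0, 152.5, 107 and 68.2 CPM in LWT livers and at 198, 89.4, 240 and 354 CPM in LΔRbfox2 livers. LWT replicate 2 was among the high livers and LΔRbfox2 replicate 2 among the low ones. *Ndufb4* of complex I (log2 fold change 1.27 ± 0.45, SE), *Uqcrh* of complex III (1.12 ± 0.41), *Sdhd* of complex II (0.77 ± 0.33) and *Atp5k* of ATP synthase (0.99 ± 0.35) put the livers in a like order, each with an adjusted P of 0.504 from edgeR. The summed level of the 11 nuclear complex IV genes was 1087, 2037, 1422 and 1020 CPM in LWT livers and 2311, 1174, 2628 and 3426 CPM in LΔRbfox2 livers. LΔRbfox2 replicate 4 was highest, and LΔRbfox2 replicate 2 lay under LWT replicates 2 and 3.

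The nuclear genes that maintain and read mitochondrial DNA had smaller medians. Of 16 genes for its replication and transcription, 2 were higher at an unadjusted P under 0.05 (edgeR) and 0 lower, beside 7.95% of all genes that were higher. The list is too short to tell these shares apart. The median log2 fold change was 0.17, and -0.088 with total counts. With 1 liver left out, this median ran from 0.0594 (without LΔRbfox2 replicate 3) to 0.277 (without LWT replicate 2). The member with the smallest P was *Ssbp1*, which binds single-stranded mitochondrial DNA, at 0.63 ± 0.26 (SE; unadjusted P = 0.0320, adjusted P = 0.504, edgeR). Of 21 genes for processing and stability of mitochondrial RNA, 3 were higher and 0 lower at that level, again beside 7.95% and in too short a list to tell. Their median was 0.16, and -0.0798 with total counts. *Fastkd2*, which acts in mitochondrial ribosome assembly, was at 0.69 ± 0.26 (unadjusted P = 0.0209, adjusted P = 0.504, edgeR). Of 7 regulators of mitochondrial biogenesis, 0 had an unadjusted P under 0.05 and the median was -0.09. This median was -0.263 with total counts and 0.06 without LΔRbfox2 replicates 3 and 4. With 1 liver left out, it ran from -0.225 (without LWT replicate 2) to 0.0247 (without LWT replicate 1). *Gabpb1*, a subunit of the transcription factor NRF-2, was at 0.37 ± 0.20 (unadjusted P = 0.0970, edgeR). Its log2 fold change was 0.219 without LΔRbfox2 replicate 4 and 0.135 with total counts.

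Hepatocyte markers were present in every liver: 9 of 10 were found, with a summed level of 58216 to 80904 CPM in LWT livers and 64010 to 83983 CPM in LΔRbfox2 livers. All 6 erythroid markers were found, and their sum was between 382 and 729 CPM in LWT livers and between 627 and 1526 CPM in LΔRbfox2 livers, highest in replicates 3 and 4, in which the summed level of the mitochondrial protein-coding genes was also highest. The 5 cholangiocyte markers summed to between 14.6 and 25.8 CPM in LWT and between 16.4 and 60.9 CPM in LΔRbfox2 livers, highest in replicate 3. The 6 Kupffer cell markers summed to between 55.5 and 97.3 CPM in LWT and between 31.1 and 65.9 CPM in LΔRbfox2 livers. Sums of the sinusoidal endothelial (63.6 to 81.1 and 54.5 to 72.8 CPM), stellate cell (70.3 to 149.8 and 92.1 to 141 CPM) and lymphocyte markers (0.582 to 0.984 and 0.406 to 2.35 CPM) overlapped between genotypes. No marker that was found was at 0 in every liver, and the part of these cell types in the levels of the mitochondrial RNAs was not tested.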

How the data were processed

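Poly(A) RNA of each liver was sequenced by the authors as paired reads of 100 bases. TopHat2 (2.0.11) placed the reads on GRCm38, and featureCounts gave the number per gene. The deposited counts are whole numbers without normalization. The featureCounts version and its strand, overlap and multi-mapping settings are not given in the sources used here. Each library comes from 1 liver. Whether cages or litters were shared is not stated, and 0 columns were left unmatched.

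Positions, lengths and sequences came from GENCODE M21 (GRCm38), which matched 45229 of 46078 identifiers. Copies were found with BLAST 2.17.0 between transcripts (at least 100 bases aligned). In R 4.3.3, edgeR 4.0.16 kept genes with filterByExpr (minimum count 10, minimum total 15), scaled libraries with TMM and compared genotypes with the quasi-likelihood test, with Benjamini–Hochberg adjustment over all 13856 genes. Standard errors and 95% intervals came from limma-voom (limma 3.58.1). Scripts were tested on simulated data. Shares and class medians carry no test. The floor of 3 counts covers counting error only. No 2 libraries of a genotype were copies (smallest chi-square per degree of freedom 106). The markers and gene lists, like the members, were chosen with earlier results of these data known. All 37 genes are accounted for, those tested by name, and from each list the gene with the smallest P is named. Alternatives were DESeq2 1.42.0, limma-voom, other scalings and filters, a replicate block, GC content and length corrections (lowess, span 0.3) and each liver left out. Leaving out LΔRbfox2 replicates 3 and 4 together, the 7 nuclear copies, or the copies from the denominator of the shares was added after seeing the data.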

Additional observations from a re-analysis of the deposited data

Results flagged for a closer look

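Of 50 sets of 4 livers examined (23 tested genes and the shares of protein-coding and rRNA genes, in each genotype), 4 held 1 liver whose distance to the nearest other liver was past the 95% critical value of Dixon's test, and chance gives about 1 in 20 such sets. *mt-Co1* was at 13004 CPM in LWT replicate 4 and between 12090 and 12112 CPM in the other LWT livers. *mt-Nd4l* was at 444 CPM in LWT replicate 2 and between 557 and 567 CPM in the others. *mt-Tp* was at 0.301 CPM in the same liver, with 15 counts, and between 0.783 and 0.853 CPM in the others. *mt-Atp8* was at 750 CPM in LΔRbfox2 replicate 1 and between 963 and 1001 CPM in the others.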

How the results depend on the processing

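Apart from the GC content and length corrections, for which only the 13 protein-coding genes were summarised, no mitochondrial gene passed an adjusted P of 0.05 under the alternatives, where adjusted P ranged from 0.0834 to 1. Under the same alternatives, 9 of 252 fold changes of tested mitochondrial genes changed sign and 243 kept it, and 3 of 184 changed sign with 1 liver left out: *mt-Tp* (from -0.0274 without LΔRbfox2 replicate 1 to 0.444, and -0.00701 without LWT replicate 2) and *mt-Tq* (from -0.0729 without LΔRbfox2 replicate 1 to 0.802). The cause was not tested in any case.

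With total counts and no TMM factor, *mt-Nd1* (-0.0152), *mt-Nd2* (-0.027), *mt-Nd4* (-0.0229), *mt-Nd4l* (-0.0378), *mt-Nd6* (-0.075) and *mt-Tl1* (-0.019) changed sign. Of the 13 protein-coding genes, 8 were above 0 at a median of 0.0566, and 0 had an unadjusted P under 0.05 (edgeR). The medians became -0.0798 for RNA processing, -0.088 for replication and transcription and 0.00596 for complex II, and over all genes 203 were higher and 393 lower at an unadjusted P under 0.05, against 1102 and 254 with TMM. DESeq2 gave 10 genes past the adjusted threshold, *Rbfox2* among them (-1.82, adjusted P = 1.99e-04), and 6 protein-coding genes at an unadjusted P under 0.05, as had 1565 of all genes. limma-voom reversed *mt-Ts1* (-0.28). The GC content correction left 7 protein-coding genes above 0 (median 0.0106), the length correction 3 (-0.122), both together 0 (-0.38), and both with the replicate block 0 (-0.497).

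Same-numbered livers are different animals, and the correlations of their deviations were 0.13, -0.62, 0.12 and -0.52, so the numbers are not taken to pair them. With the replicate block, 0 protein-coding genes had an unadjusted P under 0.05, with 13 above 0 at a median of 0.28, and 335 genes in all had one. The number of protein-coding genes at that level ran from 0 (without LΔRbfox2 replicate 4, with 404 of all genes) to 5 (without LΔRbfox2 replicate 1, with 1027), and was 1 without LWT replicate 4 (with 505), against 3 and 1356 in all 8 livers, while their median ran from 0.24 to 0.34 with 1 liver left out. Without LΔRbfox2 replicates 3 and 4 together it was 0 (with 171 of all genes), with medians of 0.0769 (RNA processing), 0.0188 (replication and transcription), -0.0125 (complex II), 0.252 (complex III) and 0.264 (complex V), and *mt-Tl1* (-0.0379) and *mt-Ti* (-0.057) changed sign.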
